A study of Homo sapiens with 36 samples.

Results

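The genes described here encode 8 proteins that act at the growing ends of microtubules: the end-binding proteins MAPRE1, MAPRE2 and MAPRE3, the linker CLIP1, the rescue factors CLASP1 and CLASP2, the tumour suppressor APC, and the tubulin polymerase CKAP5. They were chosen as members of the plus-end tracking system, and all of their annotated probe sets were taken, which gave 30 probe sets for 8 of the 19775 genes that the array annotation names singly. Of these, 21 reached the intensity needed for testing (a highest group mean of at least 24.4 intensity units, the median of all values), and every gene kept at least 1 of them. The remaining 9 stayed below 24.4 in every group: 3 of MAPRE3, 2 of CLIP1, 2 of CLASP2, 1 of MAPRE2 and 1 of APC.

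RNA was measured on 36 HG-U133 Plus 2.0 arrays, 3 for each of 12 groups made of 6 human cancer cell lines and 2 cell fractions. The lines were the glioblastoma lines U87 and U251, the fibrosarcoma line HT1080, the prostate carcinoma line DU145, the breast carcinoma line MDA231, and MDA435, whose tissue of origin has been disputed between breast and melanoma. Cells sat for 24 hours on a porous filter, after which the underside (pseudopodia, PS) and the top (cell bodies, CB) were scraped off separately. No group carried a drug or a genetic change, and the comparison was PS against CB of the same line, so it asks which RNAs are richer or poorer in the protrusions than in the cell bodies. The culture medium was DMEM for U87, U251 and HT1080 and RPMI-1640 for the other 3 lines, with fetal bovine serum, so medium and line cannot be told apart. Labelling began from 100 ng of total RNA with oligo(dT) primers in 2 cycles.

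Microtubules grow mainly at their plus ends, where end-binding proteins of the MAPRE family recognise the freshly added tubulin lattice and recruit most other plus-end proteins. CLIP1 (CLIP-170) joins them through CAP-Gly domains and links the tip to cargo and to the cell cortex, CLASP1 and CLASP2 prevent catastrophe and anchor microtubules near the leading edge, CKAP5 (ch-TOG) feeds tubulin to the tip, and APC collects at the ends of microtubules in protrusions, where it also binds RNAs. In migrating cells this system steers microtubules into the advancing edge. The arrays measured the RNAs for these proteins, not the proteins or their position on microtubules.

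Across all arrays, medians ran from 18.2 to 30.6 intensity units, with a mean of 23.0 ± 2.49 in PS and 25.8 ± 2.29 in CB arrays (SD, n = 18 each). The 45S ribosomal precursor RNA45SN5 and the nuclear RNA MALAT1 were lower in PS, with log2 changes of -3.25 ± 0.23 and -0.69 ± 0.14 (SE, limma's adjusted p = 1.99e-12 and 0.000119), and so was SERPINH1, which encodes a collagen chaperone of the endoplasmic reticulum (-1.83 ± 0.12). The part of these shifts in the results below was not tested. The labelled lines did not all show their markers. The 5 glial markers summed to at most 68.7 units in U87 against at least 4484 in U251. In U251 GPM6A was at 2155 or more and SOX2 at 1634 or more, while S100B did not pass 57.0. MDA435 also summed to 1924 or more, with S100B at 1668 or more. The melanocytic SOX10 was at 884 or more in MDA435 and TYR between 145.0 and 798.7 (at most 55.3 in any other line). PMEL and MLANA did not pass 36.2 and 28.6 there. Of the blood cell markers, PTPRC stayed at or below 20.8 on every array. HBB read between 27.9 and 100.3, and CD14 up to 71.1, its highest in MDA231. Arrays under one label also differed. The epithelial cadherin gene CDH1 was at 1299 on PS replicate 3 and 1778 on CB replicate 2 of MDA231 and at 13.7 or less on the other 4 arrays, and in MDA435 it was at 33.2 and 32.8 on PS replicate 3 and CB replicate 1 and at 922 or more on the other 4. The summed epithelial markers ran over a like range in both fractions of these lines, 7581 to 13071 in PS and 6176 to 12512 in CB of MDA231, and 1842 to 11637 in PS and 1425 to 11960 in CB of MDA435. The averaged changes and counts are therefore also given for the 4 lines other than MDA231 and MDA435.

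The end-binding protein gene MAPRE2 and, by less, MAPRE1 were higher in the protrusions, and CLIP1 and APC were lower. The brighter MAPRE1 probe set lay within the quartiles of all tested probe sets, and its call did not hold under every setting. The brighter probe sets of CLASP1, CLASP2 and CKAP5 did not pass the test. Averaged over the 6 lines, 5 of the 21 tested probe sets rose, all of them of MAPRE1, MAPRE2 and MAPRE3, where 25.4% of all 35240 tested probe sets rose. Another 9 fell, 4 of CLIP1, 4 of APC and 1 of CLASP2, where 24.5% of all did. Of these, 2 passed the intensity filter through groups of the fraction in which they were higher: MAPRE3 214270_s_at through a PS group and CLASP2 1555469_a_at through CB groups. Over the 19 probe sets that reached 24.4 in a group of each fraction, a restriction added after the data were seen, 4 rose and 8 fell, beside 27.3% and 22.4% of the 32004 that did so. The count of 4 is near its background and that of 8 above it, but probe sets of 1 gene are not independent. The median change of the 21 probe sets was -0.09 against 0.02 over all. With 1 probe set a gene, 3 of the 8 genes rose and 2 fell, beside 29.4% and 20.7% of 15399 genes. Leaving out MAPRE3, which reached 24.4 in PS alone, 2 of 7 rose and 2 fell, beside 30.6% and 20.6% of 14653. With the 6 lines taken as the units, 5 probe sets rose and 7 fell, beside 24.2% and 22.3% of all. In the 4 lines other than MDA231 and MDA435, 4 rose and 8 fell, beside 22.3% and 21.4% of all. Changes are differences of log2(intensity + 16), which understates the change of dim probe sets, and a call means a Benjamini-Hochberg adjusted p under 0.05 in limma. The split of all calls depends on the scaling of the arrays: 50.9% were higher in PS with the deposited scaling, 60.3% after quantile normalization and 65.7% with equal array medians. The fractions are bulk material, so a change sets the pooled pseudopodia of a line against its pooled cell bodies. A shift within each cell and a difference in which cells sent pseudopodia to the underside cannot be told apart.

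**Figure D1:**
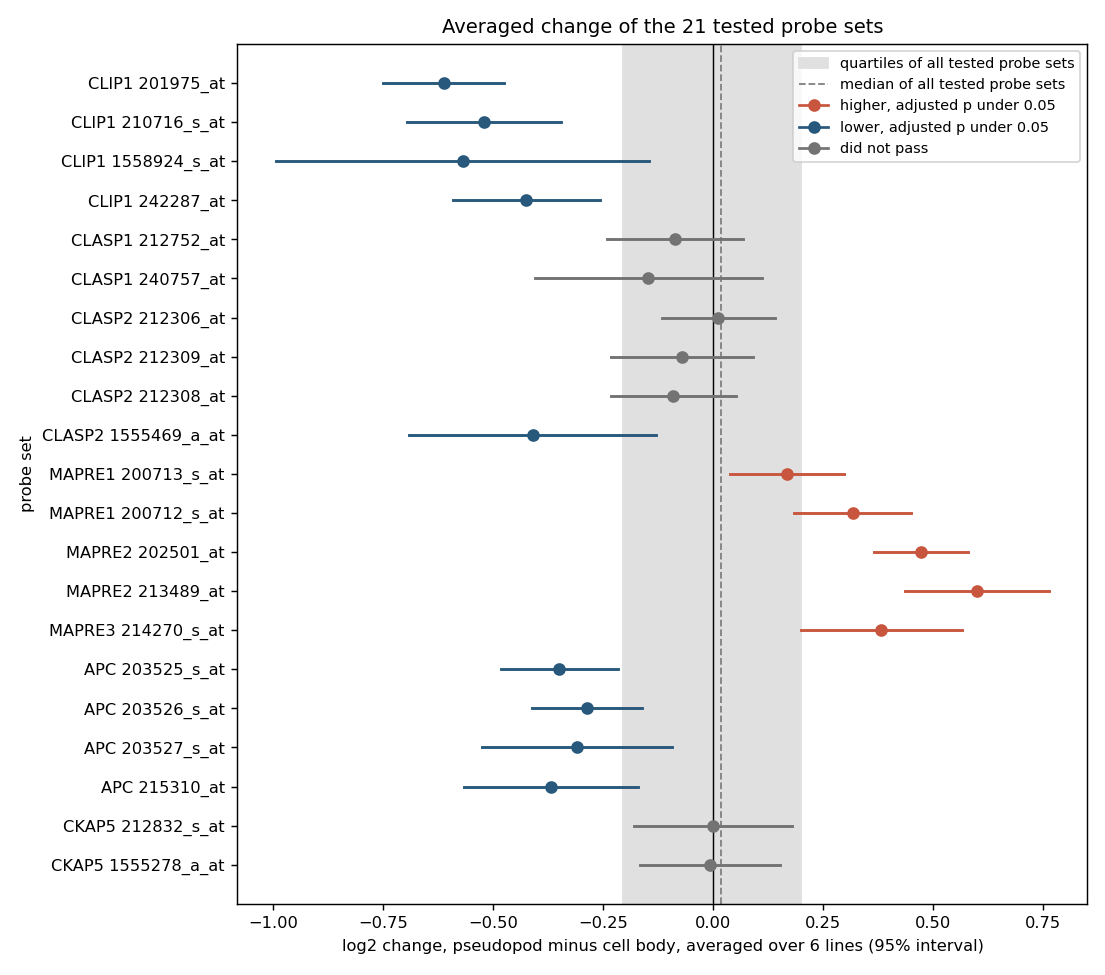
Averaged log2 change (PS minus CB) of each of the 21 tested probe sets with its 95% interval, coloured by call, over the quartiles of all tested probe sets (grey band, -0.21 to 0.20). All probe sets of the MAPRE genes lie to the right of 0 and all of CLIP1 and APC to the left, while the 2 of CKAP5 lie at 0.

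MAPRE2 (EB2, RP1), an end-binding protein that binds the lattice behind the tip more than its relatives do, rose on both of its tested probe sets. On its brighter probe set, 202501_at, the U87 arrays read 527, 586 and 536 in PS and 484, 403 and 377 in CB, and those of U251 507, 463 and 529.8 in PS and 299.5, 328 and 322 in CB. HT1080 read 383, 426 and 395 in PS against 289.7, 252.5 and 249 in CB, and DU145 469, 462 and 459 against 365, 415 and 332. MDA231 read 438, 512 and 521 against 291, 429 and 369.7, and MDA435 656, 661 and 580.4 against 404, 447 and 473. In each of the 6 lines every PS array lay above every CB array, a pattern that 1 of the 21 probe sets showed and 0.766% of all tested probe sets shared. The averaged change was 0.47 ± 0.05 (SE, 1.39-fold, adjusted p = 1.07e-08), and 4.42% of all probe sets had a larger one. The second probe set, 213489_at, rose by 0.60 ± 0.08 (adjusted p = 2.75e-07), with a larger change in 1.62% of all. Its PS arrays lay above its CB arrays in 4 lines and overlapped them in U87 and MDA435. The share of all probe sets that did so in as many lines is not given. In the 4 lines other than MDA231 and MDA435 the changes were 0.48 and 0.61. The third, 211556_at, read between 0.2 and 5.1 and was not tested.

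Within the lines, MAPRE2 202501_at passed in U251 (0.63 ± 0.13, adjusted p = 0.00102), HT1080 (0.58, adjusted p = 0.00126), MDA435 (0.50, adjusted p = 0.00794), MDA231 (0.43, adjusted p = 0.0346) and U87 (0.38, adjusted p = 0.0356), and not in DU145 (0.32, adjusted p = 0.152). The calls in U251, HT1080 and MDA435 held when any single array was left out. The U87 call was lost without PS replicate 1 (0.41), PS replicate 2 (0.33), CB replicate 2 (0.35) or CB replicate 3 (0.30), and the MDA231 call without PS replicate 2 (0.40), PS replicate 3 (0.39), CB replicate 1 (0.29) or CB replicate 3 (0.45). Among the MDA231 arrays with high CDH1, MAPRE2 202501_at was at 521 in PS and 429 in CB. Those with low CDH1 read 438 and 512 in PS and 291 and 369.7 in CB. The high-CDH1 side holds a single array of each fraction, so the split is given as values only. The second probe set passed in U251 (0.75), HT1080 (0.71) and MDA435 (0.64). Those calls were lost without U251 PS replicate 1 (0.66) or CB replicate 3 (0.64), without HT1080 PS replicate 2 (0.57), and without MDA435 PS replicate 1 (0.39), CB replicate 1 (0.62) or CB replicate 2 (0.48).

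MAPRE1 (EB1), the most studied end-binding protein and the hub through which APC, CLIP1 and CLASPs reach the tip, rose less. Probe set 200712_s_at read 1203, 1212 and 919.6 in PS and 752, 861 and 844 in CB of U87, and 839, 840.3 and 959.6 against 644, 591 and 624 in HT1080. In DU145 it read 717, 781 and 773 against 574, 599 and 704. In these 3 lines no PS array fell among the CB arrays, and in U251, MDA231 and MDA435 the fractions overlapped. The share of all probe sets with as many lines without overlap is not given. The averaged change was 0.32 ± 0.07 (1.25-fold, adjusted p = 0.000138), with the same sign in 6 of 6 lines, and 0.37 in the 4 lines other than MDA231 and MDA435. Of all probe sets, 13.3% had a larger averaged change than 200712_s_at. Within a line it passed in HT1080 only (0.49 ± 0.16, adjusted p = 0.0230), and that call was lost without PS replicate 3 (0.43), CB replicate 2 (0.46) or CB replicate 3 (0.498). The brighter probe set, 200713_s_at, read between 2211 and 4974, and 29.1% of all probe sets had a larger change than its own. It rose by 0.17 ± 0.06 (adjusted p = 0.0283), also with 1 sign in 6 of 6 lines. That call did not hold after quantile normalization (0.06, adjusted p = 0.238), in the 4 lines other than MDA231 and MDA435 (0.16, adjusted p = 0.108), or without U87 PS replicate 1 (0.14, adjusted p = 0.0546), HT1080 PS replicate 1 (0.15, adjusted p = 0.0503), MDA231 PS replicate 2 (0.15, adjusted p = 0.0506) or DU145 CB replicate 3 (0.15, adjusted p = 0.0535).

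MAPRE3 (EB3), best known from neurons and muscle, was dim in all 6 lines. Its tested probe set, 214270_s_at, had a mean of 14.2 over all arrays and passed the intensity filter through 1 group, HT1080 PS, whose arrays read 25.3, 38.3 and 36.4 against 16, 13.2 and 16.1 in CB. U251 read 10.8, 15.2 and 14 in PS against 3.5, 2.0 and 3.4 in CB, and in the other 4 lines the fractions overlapped. The averaged change was 0.38 ± 0.09 (adjusted p = 0.00068). A probe set that passes the filter only through a PS group is by that choice high in PS, so the call of MAPRE3 is given as a value only. With no filter its adjusted p was 0.001, and in the 4 lines other than MDA231 and MDA435 its change was 0.48. With a pseudocount of 1 the averaged change was 0.85, since the size of a change this close to the floor depends on the pseudocount. The HT1080 change (0.66, adjusted p = 0.0289) was lost with a pseudocount of 1 (1.08, adjusted p = 0.178) and without PS replicate 2 (0.58), PS replicate 3 (0.61) or any of CB replicates 1 (0.68), 2 (0.61) and 3 (0.68). The 3 other probe sets ranged from 0.7 to 9.6 on all arrays and carry no information on a change.

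CLIP1 moved the other way on every tested probe set. On 201975_at the U87 arrays read 655, 538 and 738 in PS and 1099, 919 and 785 in CB, and those of U251 521, 537 and 511 against 707, 644 and 723. HT1080 read 389, 409 and 394 against 705, 697 and 659, and DU145 447, 607 and 701 against 979, 1031 and 712. MDA231 read 824, 804 and 718 against 1209.8, 816 and 1235, and MDA435 417, 428 and 472 against 889.8, 813 and 821. Every PS array lay below every CB array in 5 lines, which 7.91% of all tested probe sets did in at least 5 lines, and only in MDA231 did they overlap, where CB replicate 2 read 816. The averaged fall was 0.61 ± 0.07 (SE, 1.53-fold, adjusted p = 8.33e-09), with a smaller (more negative) value in 10.4% of all probe sets, and in the 4 lines other than MDA231 and MDA435 the change was -0.58. The other tested probe sets of CLIP1 changed by -0.52 ± 0.09 (210716_s_at, adjusted p = 8.01e-06), -0.57 ± 0.21 (1558924_s_at, adjusted p = 0.0233) and -0.43 ± 0.08 (242287_at, adjusted p = 6.4e-05). Of these, 1558924_s_at varied most between replicates: in MDA231 CB it read 55.7, 36.1 and 228.9. Its change was above 0 in U251 (0.26) and MDA231 (0.09), neither of which passed. In the 4 lines other than MDA231 and MDA435 these 3 probe sets of CLIP1 gave -0.49, -0.68 and -0.49.

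Among the lines, CLIP1 201975_at passed in MDA435 (-0.92 ± 0.17, adjusted p = 0.000332), HT1080 (-0.77, adjusted p = 0.000856), DU145 (-0.63, adjusted p = 0.0185) and U87 (-0.53, adjusted p = 0.0211). It did not in MDA231 (-0.45, adjusted p = 0.0918) or U251 (-0.39, adjusted p = 0.116). The MDA435 and HT1080 calls held without any single array. The DU145 call was lost without PS replicate 1 (-0.45), CB replicate 1 (-0.56) or CB replicate 2 (-0.53), and the U87 call without PS replicate 2 (-0.41) or CB replicate 1 (-0.40). In MDA231 the PS array with high CDH1 read 718 and the CB array with high CDH1 816, whereas the low-CDH1 arrays read 824 and 804 in PS and 1209.8 and 1235 in CB. The high-CDH1 side of MDA231 holds a single array of each fraction, so its difference has no spread to set it against. The split is given as values only. In MDA435 the low-CDH1 arrays read 472 in PS and 889.8 in CB, and the others 417 and 428 against 813 and 821. The probe set 210716_s_at passed in MDA435 (-0.74) and HT1080 (-0.69), and 242287_at in DU145 (-0.84). The MDA435 call of 210716_s_at was lost without PS replicate 2 (-0.70) or CB replicate 2 (-0.73), its HT1080 call without PS replicate 3 (-0.59) or CB replicate 3 (-0.64), and the DU145 call of 242287_at without PS replicate 1 (-0.70), PS replicate 2 (-0.79), CB replicate 1 (-0.77) or CB replicate 2 (-0.74).

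Set side by side, the change of MAPRE2 (202501_at) exceeded that of CLIP1 (201975_at) by 0.90 in U87, 1.02 in U251, 1.34 in HT1080, 0.94 in DU145, 0.87 in MDA231 and 1.42 in MDA435 on the log2 scale. Both changes come from the same arrays. The difference was above 0 in each line because MAPRE2 was higher and CLIP1 lower in PS in all 6.

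**Figure D2:**
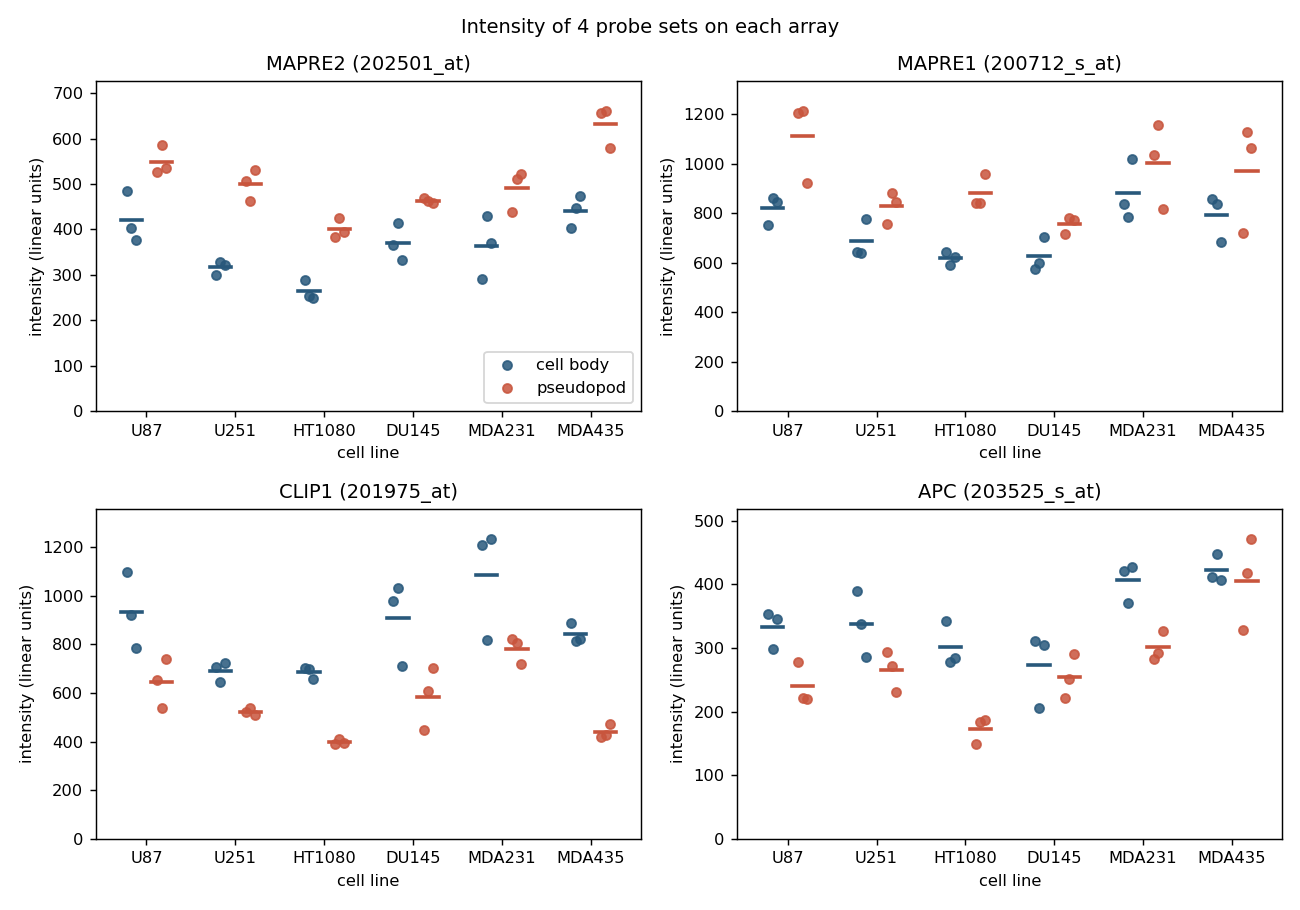
Intensity on each array (points) and group mean (lines) of MAPRE2, MAPRE1, CLIP1 and APC in the 6 lines, CB in blue and PS in red, on linear axes from 0. MAPRE1 is shown on its dimmer probe set, 200712_s_at, and the others on their brightest. The brightest of MAPRE1, 200713_s_at, is not shown: it changed by less (0.17 against 0.32) and overlapped between fractions in 4 lines. MAPRE2 has no overlap between fractions in any line, CLIP1 overlaps in MDA231 only, and APC stands furthest apart in HT1080 and overlaps in U251, DU145 and MDA435.

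APC, the scaffold that gathers at plus ends in protrusions and is the adenomatous polyposis coli tumour suppressor of the Wnt pathway, fell on all 4 tested probe sets. The brightest, 203525_s_at, read 278, 222 and 219 in PS against 354, 298 and 346 in CB of U87, and 293, 272 and 230.3 against 390.0, 337 and 286 in U251. HT1080 read 149, 184 and 186 against 342, 278 and 284, and DU145 222, 251.3 and 289.9 against 312, 206 and 304. MDA231 read 283, 293 and 327 against 422, 371 and 427, and MDA435 328, 418 and 472 against 412, 448 and 407. PS lay below CB without overlap in U87, HT1080 and MDA231, whereas in DU145 and MDA435 the arrays were mixed. The share of all probe sets with as many such lines is not given, so this cannot be read as a trait of APC. The averaged change was -0.35 ± 0.07 (1.27-fold lower, adjusted p = 4.38e-05), and -0.40 in the 4 lines other than MDA231 and MDA435. A more negative averaged value was found in 17.55% of all probe sets. The dimmer probe sets gave -0.29 ± 0.06 (203526_s_at, adjusted p = 0.000238), -0.31 ± 0.11 (203527_s_at, adjusted p = 0.0155) and -0.37 ± 0.10 (215310_at, adjusted p = 0.0021). The call of 203527_s_at was lost after quantile normalization (-0.20, adjusted p = 0.149), with equal array medians (-0.21, adjusted p = 0.125) and with lines as units (-0.31, adjusted p = 0.058). In the 4 lines other than MDA231 and MDA435 these 3 gave -0.37, -0.39 and -0.34. The fifth probe set of APC, 216933_x_at, stayed between 0.6 and 14.7.

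Among the lines, APC 203525_s_at passed in HT1080 (-0.75 ± 0.16, adjusted p = 0.000774), which held without any single array, and in U87 (-0.45, adjusted p = 0.0416), which did not: it was lost without PS replicate 2 (-0.40), PS replicate 3 (-0.395), CB replicate 1 (-0.41) or CB replicate 3 (-0.42). It changed by -0.41 in MDA231, -0.33 in U251, -0.09 in DU145 and -0.07 in MDA435, none of which passed. HT1080 was also the line in which 203526_s_at (-0.48) and 203527_s_at (-0.93) passed. The first of these was lost without PS replicate 3 (-0.41), CB replicate 1 (-0.47) or CB replicate 3 (-0.43), and the second without PS replicate 1 (-0.68), PS replicate 2 (-0.79) or CB replicate 1 (-0.72). On 203527_s_at the HT1080 PS arrays spread from 4.8 to 34.6, and the highest of them lay above 2 of the 3 CB arrays.

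The CLASP genes showed no change that passed on their brighter probe sets. CLASP1 212752_at changed by -0.09 (95% interval -0.24 to 0.07, adjusted p = 0.360) and 240757_at by -0.15 (-0.41 to 0.11, adjusted p = 0.356), and in all 6 lines the fractions overlapped on both. CLASP2 212306_at changed by 0.01 (-0.12 to 0.14, adjusted p = 0.898), 212309_at by -0.07 (-0.23 to 0.09) and 212308_at by -0.09 (-0.23 to 0.05). In the 4 lines other than MDA231 and MDA435 the CLASP1 probe sets gave -0.02 and -0.20 and these CLASP2 probe sets -0.04, -0.13 and -0.08, none of which passed. Individual CLASP2 lines leaned both ways without passing: on 212306_at the U251 arrays read 515, 590.0 and 555 in PS against 506, 498 and 424 in CB, while those of U87 read 402, 447 and 572 against 645, 669.7 and 451.

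A dim CLASP2 probe set, 1555469_a_at, was called lower (-0.41 ± 0.14, adjusted p = 0.0136). It read between 5.1 and 8.4 on some arrays and between 15.4 and 55.1 on the rest: in DU145 the PS arrays read 6.1, 5.8 and 5.5 and the CB arrays 28.4, 18.8 and 31.7, in HT1080 the CB arrays read 55.1, 16.4 and 5.4, and in U87 all 6 lay between 5.3 and 5.7. It passed the filter through CB groups alone, so it is by that choice high in CB and its call is given as a value only. The call was lost in the 4 lines other than MDA231 and MDA435 (-0.36, adjusted p = 0.0846) and with lines as units (-0.41, adjusted p = 0.0507). When the tested probe sets of CLASP2 were averaged, the gene changed by -0.14 (adjusted p = 0.0265), opposite in sign to its brightest probe set. That mean includes 1555469_a_at, so it too is given as a value only and is not a fall of the gene.

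CKAP5, the XMAP215-family polymerase, did not pass on either probe set. On 212832_s_at the averaged change was -0.001 (95% interval -0.18 to 0.18, adjusted p = 0.996) and on 1555278_a_at -0.01 (-0.17 to 0.15, adjusted p = 0.956). Both probe sets were above 0 in U251 and DU145 and below it in the other 4 lines. In DU145 212832_s_at read 335, 379 and 309 in PS against 289, 293 and 279 in CB, without overlap, and the difference did not pass (0.23, adjusted p = 0.622). In MDA435 one CB array, replicate 1, read 859.8 against 494 and 552 on the other CB arrays and 506 to 603 in PS. This was 1 of the arrays with low CDH1.

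Counted by line, HT1080 had 4 probe sets of these genes higher and 5 lower, where 9.9% and 12.8% of all probe sets were called. The 4 were of MAPRE1, MAPRE2 (both) and MAPRE3, and the 5 were of CLIP1 (2) and APC (3). The MAPRE3 probe set passed the intensity filter through HT1080 PS alone, so its rise there is given as a value only. U87 had 1 higher and 2 lower (8.67% and 12.1% of all), U251 2 higher and 0 lower (4.61% and 9.92%), DU145 0 higher and 2 lower (1.15% and 5.43%), MDA231 1 higher and 0 lower (1.15% and 7.45%) and MDA435 2 higher and 2 lower (2.42% and 9.67%). Every called rise in a line was of a MAPRE gene and every called fall of CLIP1 or APC. The differences between lines were tested directly with a moderated F test over the 5 contrasts between line changes in limma. Of the 21 probe sets 0 passed, against 1.23% of all. With no adjustment, 1 of them was under 0.05, APC 203525_s_at, whose adjusted p in limma was 0.498. The counts per line therefore do not show that lines differ in the change of these genes.

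**Figure D3:**
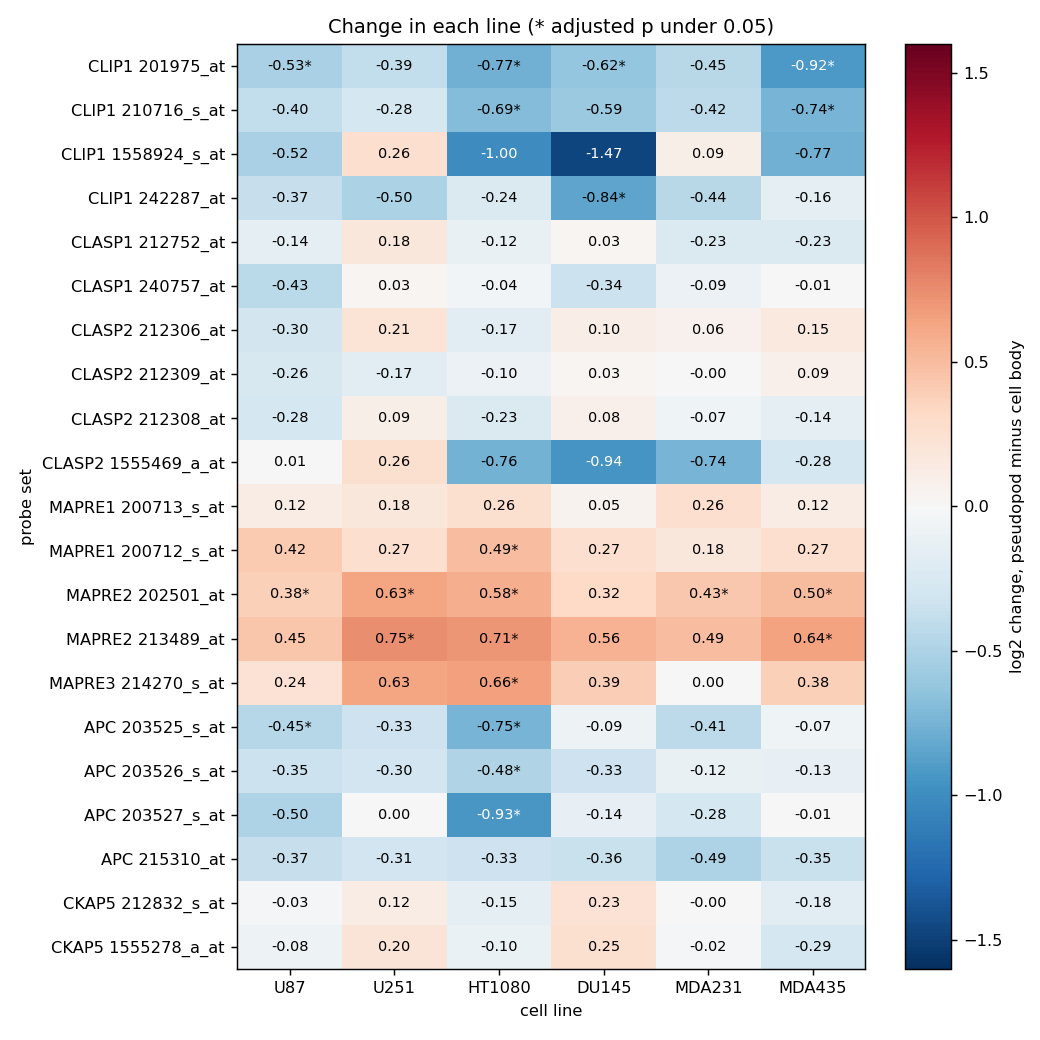
Log2 change (PS minus CB) of each tested probe set in each line, red for higher and blue for lower in PS, with an asterisk where the adjusted p was under 0.05. The rows of MAPRE1 and MAPRE2 are red in all 6 lines, those of CLIP1 201975_at and APC 203525_s_at are blue in all 6, and HT1080 has the most asterisks (9). That of MAPRE3 in HT1080 marks a probe set that passed the intensity filter through HT1080 PS alone.

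The level of several members in the cell bodies differed between lines. By a moderated F test over the 6 CB means, 15 of the 21 probe sets differed between lines, beside 76.7% of all tested probe sets, so this share is near the background. CKAP5 on 1555278_a_at was at 428 ± 136 in MDA435, 415 ± 37.2 in MDA231 and 405 ± 4.14 in U251 (SD, n = 3), then 228 ± 41.5 in U87, 192 ± 28.1 in HT1080 and 151 ± 23.5 in DU145. The step from U251 down to U87 passed (0.80 on the log2 scale, adjusted p = 0.00123), and the other neighbours in that order did not differ beyond their spread. On the brighter 212832_s_at U251 was at 747 ± 68.4 and DU145 at 287 ± 7.06 (1.33, adjusted p = 8.96e-06), and no pair of neighbours passed. MAPRE1 200713_s_at was highest in U87 (3675 ± 481), above U251 (2701 ± 211, adjusted p = 0.0283), and the other 5 lines, from U251 down to HT1080 (2265 ± 54.5), did not differ from their neighbours. On the dimmer 200712_s_at MDA231 (879 ± 122) stood above U87 (819 ± 58.6), so the 2 probe sets of MAPRE1 gave different orders. The step from U87 to U251 on 200713_s_at was lost without U87 CB replicate 1 (0.34) or U251 CB replicate 2 (0.37).

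CLASP1 212752_at was highest in MDA435 (381 ± 103) and lowest in DU145 (169 ± 15.3), with HT1080, MDA231, U251 and U87 between 229 and 254. MDA435 lay above HT1080 by 0.53 (adjusted p = 0.0268), a step that did not pass with equal array medians (0.47, adjusted p = 0.104) or without HT1080 CB replicate 1 (0.52) or 2 (0.52), MDA435 CB replicate 1 (0.34, adjusted p = 0.204) or MDA435 CB replicate 2 (0.54). Within MDA435 the arrays with low CDH1 had the highest CLASP1, 490 in CB and 439 in PS, against 247 to 368 on the 4 others. The dimmer CLASP1 probe set, 240757_at, did not pass the test between lines (adjusted p in limma's F test = 0.80), with 115 ± 7.55 in MDA231 and 112 ± 17.6 in MDA435. The order of MAPRE2 202501_at ran from MDA435 (441 ± 34.9) over U87, DU145, MDA231 and U251 to HT1080 (264 ± 22.4). Its ends differed (0.71, adjusted p = 6.05e-05) and no neighbours did. APC 203525_s_at ran from MDA435 (422 ± 22.2) and MDA231 (407 ± 31.3) to DU145 (274 ± 58.9), CLIP1 201975_at from MDA231 (1087 ± 235) to HT1080 (687 ± 24.6), and CLASP2 212306_at from MDA231 (700.3 ± 97.5) to U251 (476 ± 45.5). Their ends differed (adjusted p = 0.00254, 0.00364 and 0.00571) and their neighbours did not. MAPRE3 was between 2.97 ± 0.84 in U251 and 15.1 ± 1.65 in HT1080.

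**Figure D4:**
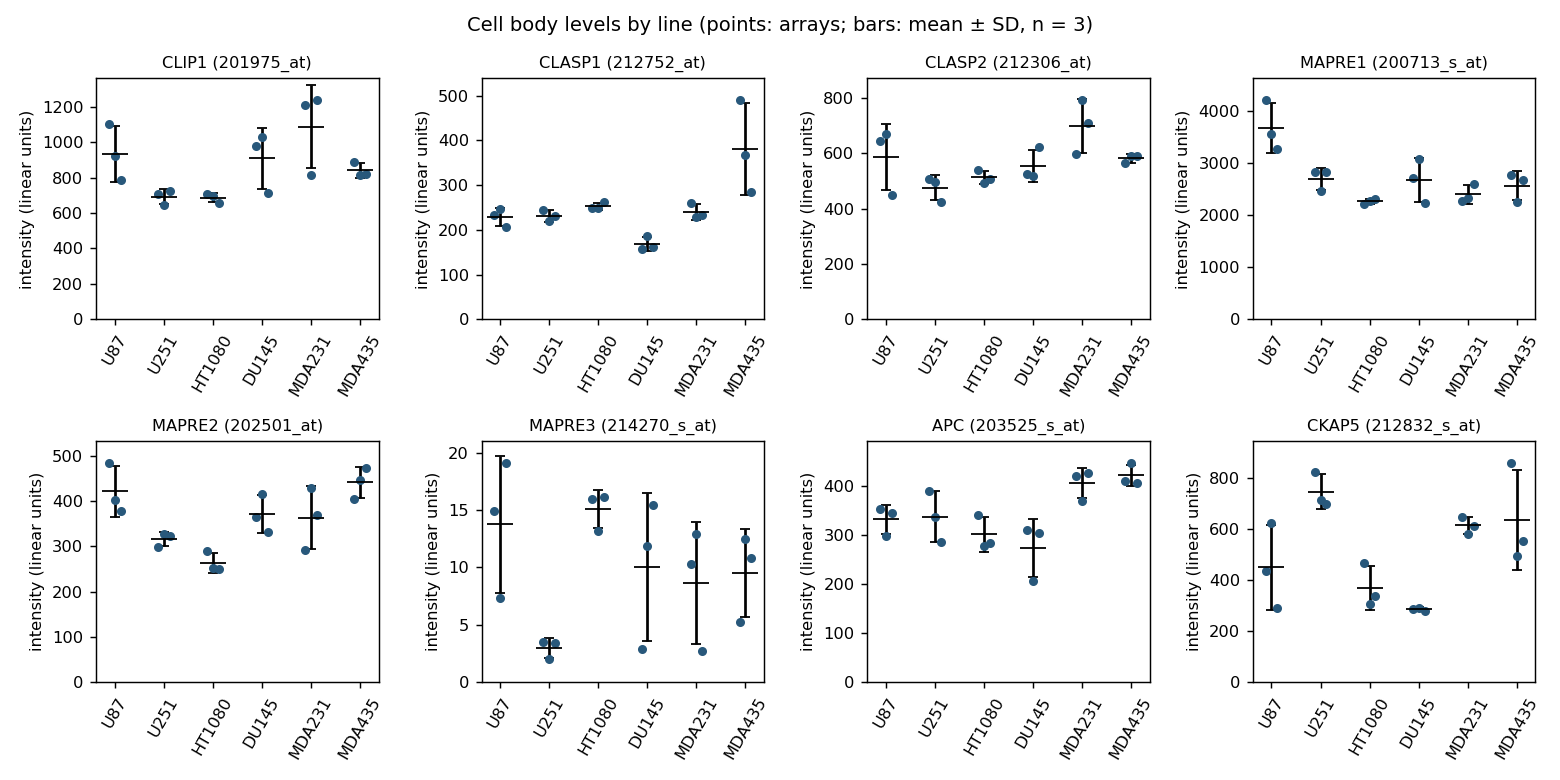
Cell body intensity of the brightest probe set of each gene in the 6 lines (points are arrays, bars the mean ± SD of 3), with linear axes from 0. On the probe sets shown, MAPRE1 is highest in U87, CLASP1 in MDA435 and CKAP5 in U251, and MAPRE3 does not pass 19.1 units.

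Genes whose pattern came closest to that of a member were found by Pearson correlation over 12 values, the 6 line changes and the 6 CB means, each centred within its kind. These values share arrays and group means, and the correlations are descriptive. CKAP5 was most like NAV2 (r = 0.96), TXLNA (0.95) and HDAC9 (0.95), CLASP1 most like EEF2K (0.98), CCDC14 (0.94) and LOC729870 (0.93), and CLASP2 most like NPPA (0.92), GSK3A (0.91) and GIT1 (0.90). MAPRE1 came closest to ING1 (0.95), YWHAB (0.93) and PKIB (0.92), MAPRE2 to CENPO (0.94), ZNF764 (0.91) and GDPD3 (0.91), and MAPRE3 to SLC36A1 (0.88), LMF1 (0.85) and KRT31 (0.85). APC came closest to SMC1A (0.91), MCF2L-AS1 (0.91) and SLC12A2 (0.84), and CLIP1 to MAPK7, TCHP and CIC (0.84 each).

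Among other plus-end trackers, the counts of rises and falls lay near those over all genes. Of 30 such genes, 28 were tested, of which 7 rose and 7 fell, beside the 29.4% and 20.7% of all genes, with a median change of 0.09 against 0.05 over all genes. With equal array medians 11 rose, where 41.1% of all genes did, and in the 4 lines other than MDA231 and MDA435 7 rose and 5 fell, where 26% and 18.4% of all did. The largest rises were of NDE1, a dynein cofactor (0.44 ± 0.09, adjusted p = 7.51e-05), DCTN1, the dynactin subunit that like CLIP1 carries a CAP-Gly domain (0.43 ± 0.10), and KNSTRN, a kinetochore and spindle tracker (0.41 ± 0.08). The largest falls were of DST (-0.98 ± 0.08, adjusted p = 2.09e-11), a spectraplakin that links microtubules to actin, STIM1 (-0.68 ± 0.08), the calcium sensor of the endoplasmic reticulum, and TACC1 (-0.63 ± 0.07), of the family that partners CKAP5. The other spectraplakin, MACF1, singled out after its value was seen, fell by 0.60 ± 0.10.

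Of 23 cortical and signalling partners of APC and the CLASPs, 21 were tested, 4 rose and 5 fell, beside the same 29.4% and 20.7% of all genes, with a median of 0.04 against 0.05. CDC42, the polarity GTPase (0.39 ± 0.07), KIF3B, a subunit of the kinesin-2 motor that carries APC (0.37 ± 0.06), GSK3B, the kinase that phosphorylates APC and CLASP2 (0.18 ± 0.06), and ERC1 (0.15 ± 0.06) rose. IQGAP1, the scaffold that binds CLIP1 and APC, fell most (-1.72 ± 0.13, adjusted p = 8.83e-12), followed by ARHGEF4, the exchange factor activated by APC (-0.63 ± 0.08), the formin DIAPH1 (-0.62 ± 0.10), PHLDB2 (-0.61 ± 0.09) and CTNNB1 (-0.29 ± 0.08). ERC1, PHLDB2 and CTNNB1 are named after their values were seen. With equal array medians 8 of the list rose, beside the 41.1% of all genes. In the 4 lines other than MDA231 and MDA435 3 rose and 5 fell, where 26% and 18.4% of all genes did. Of 26 tested genes for lattice and minus-end proteins 10 rose and 1 fell, beside 29.4% and 20.7% of all genes. Their median was 0.09 against 0.05, and in the 4 lines 9 rose and 1 fell, beside 26% and 18.4% of all genes. In this list TUBG1, the gamma-tubulin of the nucleating ring (0.49 ± 0.06), MAP1S (0.49 ± 0.10) and MAP7D1 (0.41 ± 0.14) rose most. The severing enzyme SPAST fell (-0.36 ± 0.04).

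APC also anchors RNAs in protrusions, and 9 RNAs described elsewhere as reaching protrusions by that route were all tested. In these arrays 6 rose and 1 fell, beside 29.4% and 20.7% of all genes, with a median of 0.42 against 0.05. The list was chosen with earlier results of these data known, so its counts are descriptive. In the 4 lines other than MDA231 and MDA435 5 rose and 1 fell, where 26% and 18.4% of all genes did. The largest rises were of RAB13, a membrane traffic GTPase (0.69 ± 0.09), KIF1C, a kinesin motor (0.57 ± 0.08), and TRAK2, a motor adaptor of mitochondria (0.52 ± 0.08), and the fall was of the collagen receptor DDR2 (-0.77 ± 0.12). The RNA of APC itself fell in the same arrays, as given above. Whether the levels of APC and of these RNAs are linked was not tested.

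**Figure D5:**
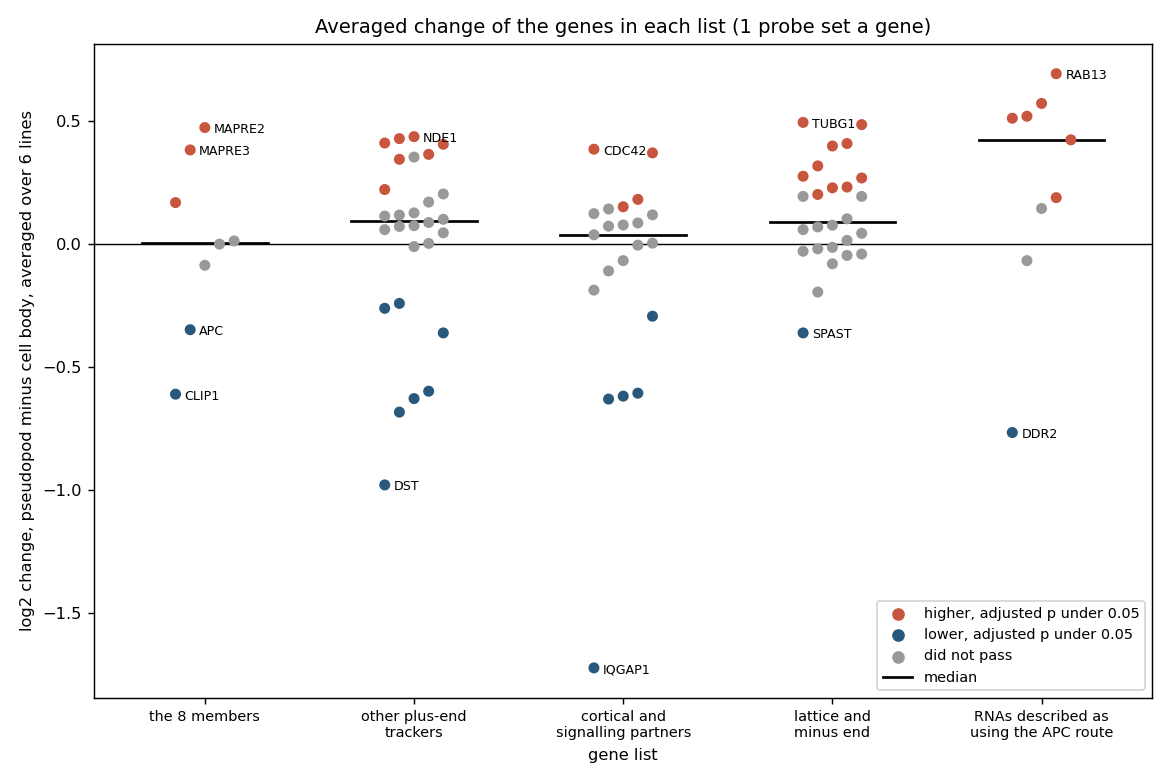
Averaged log2 change of the 8 genes and of the 4 background lists, 1 probe set a gene (points, coloured by call), with the median of each group (line). The RNAs of the APC route have a median of 0.42, the other 3 lists lie between 0.04 and 0.09, and IQGAP1 has the lowest value of all points shown (-1.72). All lists were chosen with earlier results of these data known.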

How the data were processed

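The deposited table holds linear intensity values made by the authors, 1 column for each of 36 arrays and 54593 probe sets. RMA and Partek appear in the submitters' processing notes, with no role stated. The values are not on the log2 scale that RMA gives, and which program made them is unknown here. Probe sets were named from the platform annotation, with symbols updated through the RefSeq gene table. From the deposited values log2(intensity + 16) was taken, and 35240 probe sets whose highest group mean reached 24.4 were fitted with 12 group means in limma 3.58.1 (R 4.3.3, 24 residual degrees of freedom), adjusting over all of them. The fit was tested on simulated data with 200 changed probe sets among 35240. Averaged over 6 lines it recovered 93% of the smaller and 99% of the larger planted changes, and in U87 alone 17% and 69%. More probe sets were called in the real arrays than were changed there, so these shares do not carry over. A change that did not pass in a line may still be present. The 8 genes and the lists were chosen with earlier results of these data known. Every probe set of the 8 genes is named, and from each list up to 3 called rises and 3 called falls of largest size, each gene by its brightest probe set. Nothing says that the 3 arrays of a group came from separate cultures, so p-values measure the spread between these arrays, which may be technical; their number limits the precision. There were 13 alternative settings besides leaving out each array, and 1 more was added after the data were seen. Figures were drawn in Python 3.11.15.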

Additional observations from a re-analysis of the deposited data

Results flagged for a closer look

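The fall of ARHGEF4, the exchange factor that APC activates, differed between lines in the moderated F test of limma (adjusted p = 0.00352). It changed by -1.50 ± 0.20 in U251 (95.2 ± 7.25 in PS and 299.7 ± 38.7 in CB, SD, n = 3), by -1.07 in DU145 and by -0.95 in MDA231, all past the threshold. In U87, HT1080 and MDA435 it was dim in both fractions, at 8.03 to 17.8 units, and its changes there were 0.02, -0.28 and -0.01.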

How the results depend on the processing

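The averaged calls of CLIP1 (4 probe sets), MAPRE2 (2), MAPRE1 200712_s_at and APC 203525_s_at, 203526_s_at and 215310_at kept their direction and passed under each of the 10 or 11 alternatives that could be run on the probe set and with any single array left out. With 1 probe set a gene, 3 rose and 2 fell on average, 7 cell body levels differed, and the counts were 1 higher in U251, 2 higher and 2 lower in HT1080, 1 lower in DU145, and 1 higher and 1 lower in MDA435, since fewer probe sets of these genes were tested. The averaged and HT1080 rises with 1 probe set a gene include MAPRE3, which passed the filter through HT1080 PS alone. A pseudocount of 64 gave 2 higher in U87. Quantile normalization gave 0 higher and 1 lower in U87 and 1 lower in MDA231, and turned CKAP5 to 0.002 and 0.025. Equal array medians gave 0 lower in U87, 3 lower in HT1080, 2 higher and 1 lower in DU145, 2 higher in MDA231, 1 lower in MDA435, 11 higher among other plus-end trackers and 8 among cortical partners, and turned CLASP1 212752_at to 0.01, CLASP2 to 0.027 and 0.007, and CKAP5 to 0.097 and 0.091. Array weights gave 1 lower in U87, 4 higher and 4 lower in U251, 4 higher and 6 lower in DU145, 2 higher and 3 lower in MDA231 and 2 lower among lattice proteins, and turned CLASP2 212306_at to -0.014 and CKAP5 to 0.008 and 0.014. The CDH1 block gave 2 higher in U87, 5 lower in DU145 and 2 lower among lattice proteins. The 4 lines other than MDA231 and MDA435 turned CLASP2 212306_at to -0.037 and CKAP5 to 0.045 and 0.066, and the mean of its probe sets turned CLASP2 to -0.14. Without probe sets marked _x_at or _s_at no gene changed its call, and MAPRE1 and MAPRE3 had no tested probe set left. The cause of these shifts was not tested. The share of all probe sets called in a line is not given for each setting, so these counts cannot be read against it. Averaged over the lines, all tested probe sets gave 8934 higher and 8621 lower in the main fit. They gave 10330 and 10032 with array weights, 13142 and 6853 with equal array medians, and 11203 and 7372 after quantile normalization. The CDH1 block gave 9912 and 9155, and a pseudocount of 64 gave 9101 and 8598.

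Replicate numbers did not pair PS and CB arrays: 4 of 18 same-numbered pairs correlated above 0.1 (range -0.71 to 0.65), and 4 of 18 arrays matched their own number best. With a replicate block the averaged counts stayed at 5 and 9. Within lines, U87 had 0 higher and 0 lower, HT1080 2 higher, DU145 0 lower, MDA231 0 higher and MDA435 1 higher and 1 lower. Over all tested probe sets the block gave 7971 higher and 8135 lower on average. The share of all probe sets called in a line is not given for it.

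Leaving out 1 array at a time gave 0 to 2 higher and 0 to 2 lower in U87, 1 to 3 higher in U251, 2 to 4 higher and 3 to 6 lower in HT1080, 0 to 1 higher and 0 to 3 lower in DU145, 0 to 1 higher and 0 to 2 lower in MDA231, 1 to 2 higher and 1 to 2 lower in MDA435, and 1 to 2 lower among lattice proteins. CKAP5 ran from -0.046 to 0.043 (212832_s_at) and from -0.046 to 0.033 (1555278_a_at), and CLASP2 212306_at from -0.018 to 0.034. Counts of calls in a single line rest on 3 arrays a fraction, and the share of all probe sets called is not given for each of these fits. MAPRE3, CLASP2 1555469_a_at and the dim probe sets of APC lie close to the floor of the arrays, where a log2 change understates a ratio of intensities.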
